A study of Mus musculus with 12 samples.

Results

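Ptgs2, Ptgis and Ptges encode a cyclooxygenase and a pair of terminal synthases of the prostanoid pathway. They were taken by gene symbol, and all 3 were found among the 8267 named genes of the array, each through 1 probe. Their expression was followed in MECs, a cell line of mouse intraembryonic endothelial cells, on 12 two-colour arrays: 3 of mock-treated control cells and 3 from each of 3 lengths of BMP6 treatment, 4 h, 12 h and 24 h. BMP6 is a bone morphogenetic protein, a secreted ligand of the TGF-beta superfamily. The RNA of the cells carried Cy5 and was hybridised together with a universal mouse reference RNA in Cy3, which every array shared. The labels call the replicates of a group independent, give no dose of BMP6 and give the controls no time. As no control is matched to a treatment time, effects of BMP6 and of handling or time in culture cannot be told apart. All the cells are 1 line, so p-values measure the spread between cultures or extracts of that line. In the paired fit below, it is the spread left after differences between replicate numbers are removed.

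Prostanoids are short-lived lipid signals made from arachidonic acid. Phospholipases release the acid from membranes, cyclooxygenases turn it into prostaglandin H2, and terminal synthases convert that shared intermediate into each end product. Ptgs2 encodes cyclooxygenase 2, the inducible form, which is low in many resting cells and rises after growth factors and cytokines. Ptgis encodes prostacyclin synthase, whose product widens blood vessels and keeps platelets from clumping, and which endothelial cells are known for. Ptges encodes the inducible microsomal prostaglandin E synthase. The title of the series points to a prostanoid enzyme and its products as part of what BMP6 does. The comparisons ask how far the transcripts of the 3 genes lay from control at each time.

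Start regions of Ptgs2 and Ptges are shown because Ptgs2 changed most and Ptges least of the 3 genes; Ptgis had no entry in the table used. The sequences are RefSeq's for GRCm38.p6, 250 bases before the annotated start, 5′ to 3′ on the gene's strand. Ptgs2 lies at chr1:150099781-150100030 on the plus strand and Ptges at chr2:30903298-30903547 on the minus strand. The Ptgs2 site after its start covers 30 bases at chr1:150100035-150100064. Capitals mark matches to the searched motifs.
Ptgs2: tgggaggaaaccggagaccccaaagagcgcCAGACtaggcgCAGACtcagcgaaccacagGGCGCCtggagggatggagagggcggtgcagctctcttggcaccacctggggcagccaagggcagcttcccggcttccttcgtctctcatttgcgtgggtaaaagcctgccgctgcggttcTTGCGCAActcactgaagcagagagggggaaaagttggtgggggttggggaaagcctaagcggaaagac
Ptgs2 site: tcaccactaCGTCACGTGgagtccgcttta
Ptges: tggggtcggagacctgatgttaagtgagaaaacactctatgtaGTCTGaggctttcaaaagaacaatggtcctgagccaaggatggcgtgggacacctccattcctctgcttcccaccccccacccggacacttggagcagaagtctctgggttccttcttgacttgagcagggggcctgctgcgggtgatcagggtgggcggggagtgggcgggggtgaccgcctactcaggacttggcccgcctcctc

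The motifs were chosen with the sequences in view and searched on both strands of the 300 bases around each start (250 before, 50 after). In Ptgs2, the C/EBP site TTGCGCAA began at -69, counted from the annotated start, and the E-box CACGTG at 17, where it overlapped a CRE half-site TGACG on the other strand. The GC-rich SMAD element GGCGCC began at -190, and the short SMAD element CAGAC occurred at -220, -209 and 35. Ptges held CAGAC once, at -207 on the other strand, and neither window held the TATA box letters TATAAA. Among 32851 windows of the table, 0.183% held the C/EBP letters, 7.15% the E-box, 20.8% the CRE half-site, 11.9% GGCGCC, 49.6% CAGAC and 13.6% TATAAA. These are letter matches and say nothing of binding.

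Each value is a log ratio, read as log2 and, going by the dyes, as Cy5 (cells) over Cy3 (reference). The sources used here leave base and sign unstated: with the opposite sign each rise below is a fall and each rank counts from the other end, and with natural logarithms each fold is larger. A gene's level is therefore a ratio to the reference pool, and says nothing of whether a probe was detected. The cells carried Cy5 throughout, so abundance and any dye effect of a probe cannot be told apart in levels and ranks. Differences between groups set the same dyes against each other. Names were put on rows through a grid order inferred from agreement between probes of the same gene. In that order the first 2 probes of a gene correlated at r = 0.471 across 1831 genes, which are no independent replicates, and in the deposited order at 0.021. As such agreement picked the order, these values are no independent check of the names. Ptgs2, Ptgis and Ptges have 1 probe each, so agreement within these genes could not be looked at. Array medians lay between -0.044 and 0.002 and correlations between arrays from 0.877 to 0.98. Of 16 endothelial markers 5 were named on the array, and all 5 lay below the reference in controls, Pecam1 at -1.42 ± 0.241 and Cdh5 at -1.62 ± 0.0841 (SD, n = 3), so these levels do not mark the cells as endothelial against the pool.

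Ptgs2 stood far above the reference before any BMP6. Its control level was 2.712, 2.741 and 3.522 on the 3 arrays, 2.992 ± 0.46 (SD, n = 3), rank 10 from the top among the 8267 ratios to the reference, which order ratios and not abundances. The first and second control arrays were close together and the third lay well above them. After 4 h the arrays read 4.081, 4.367 and 4.569, all above every control array, and Ptgs2 then had the highest ratio of all named genes (rank 1; with the sign turned the lowest, rank 8267). After 12 h they read 3.671, 3.75 and 3.499, and after 24 h 3.222, 3.315 and 3.333. The 12 h and 24 h arrays overlapped the controls only because of the third control array, which at 3.522 lay above 12 h replicate 3 and above all 3 arrays at 24 h. The means therefore ran from control through 24 h and 12 h up to 4 h.

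Ptgis also lay above the reference throughout, with smaller differences. Control arrays read 1.329, 1.558 and 1.868, a mean higher than that of 98.5% of the named genes (1.52% with the sign turned). At 4 h the values were 1.893, 2.063 and 2.188, all above the highest control, though by only a small step. At 12 h they were 1.526, 1.821 and 2.027, within reach of the controls, and at 24 h 1.385, 1.489 and 1.712, inside the control range. In each of the 4 groups replicate 1 was lowest and replicate 3 highest, so the spread within a group was mostly shared by arrays of the same number.

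Ptges stayed below the reference in all 12 arrays. Control arrays read -0.762, -0.692 and -0.787, and only 8.24% of named genes had a lower mean (91.7% with the sign turned). The 4 h values were -0.833, -0.604 and -0.586, the 12 h values -0.844, -0.517 and -0.696, and the 24 h values -0.82, -0.602 and -0.605. Each treated group straddled the controls, with replicate 1 below them and the others mostly above.

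**Figure D1:**
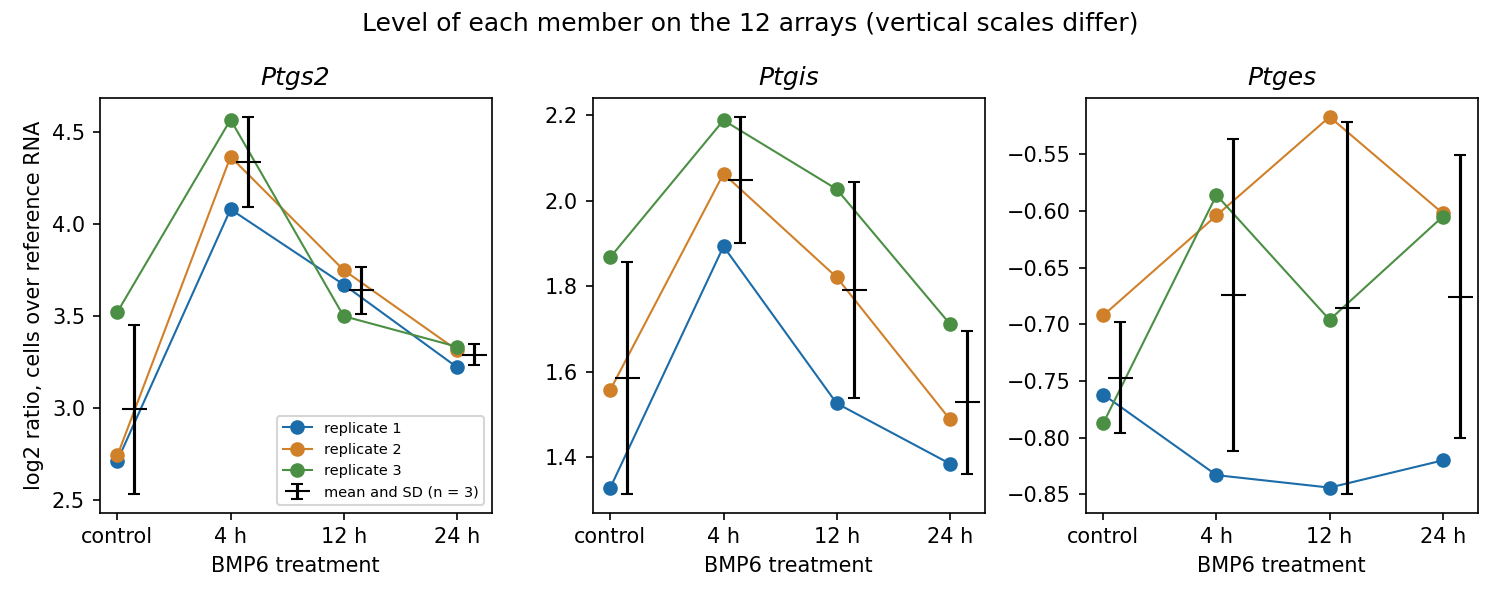
Log2 ratio of cells over reference RNA for Ptgs2, Ptgis and Ptges in control cells and after 4, 12 and 24 h of BMP6; each point is an array, coloured lines join arrays of the same replicate number, and black bars give the mean and SD (n = 3). Ptgs2 peaks at 4 h at 4.081 to 4.569, Ptgis peaks at 4 h with its replicates in the same order in every group, and Ptges stays between -0.844 and -0.517.

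Differences were tested with limma over all 8267 named genes, with Benjamini-Hochberg adjusted p-values. The unpaired fit uses the 4 groups alone. The paired fit adds the replicate number of the titles as a block, since same-numbered arrays deviated together from their group means. Their correlations across groups ran from 0.443 to 0.695 over 18 pairs, against -0.564 to 0.069 over 36 differently numbered pairs. Deviations from a group mean cancel out within the group, so the latter range follows in part from the former and is no separate evidence. The paired p-values leave out the spread between replicate numbers, and no label says what arrays of the same number share. The labels state an unpaired test between groups, called the methods' test below, and no pairing. The unpaired fit was taken as the main one and the paired fit as the alternative.

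After 4 h of BMP6, Ptgs2 rose 2.54-fold. The log2 change was 1.347 (SE 0.192, 95% interval 0.926 to 1.769, adjusted p = 0.0229 unpaired; SE 0.164, adjusted p = 0.00177 paired). It was higher in 3 of 3 pairs, by 1.369, 1.626 and 1.047, and this was the third largest rise of the 8267 genes. Of those genes, 10 rose in the unpaired fit (0.121%) and 188 in the paired fit (2.27%), 14.7% were higher in 3 of 3 pairs, and 3.81% had all their 4 h arrays above all control arrays. The unpaired call is fragile. It held with quantile normalization (adjusted p = 0.0293), median centring (0.0268) and single rows (0.0313). It also held in 8 of 12 fits with 1 array left out. Its adjusted p was 0.119 with a variance trend and 0.167 with only control and 4 h in the fit. It was 0.712 by the methods' test, which called 0 genes after adjustment. That test put 474 genes at an unadjusted p under 0.05, Ptgs2 among them, against 614 by limma. Limma's adjusted p was 0.0813, 0.125, 0.141 and 0.128 without control replicate 1, control replicate 2, 4 h replicate 2 or 4 h replicate 3. The paired call held with each array left out in turn (0.00057 to 0.0136) and missed the threshold when all 4 arrays of replicate 2 were left out (log2 change 1.208, adjusted p = 0.0786).

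Ptgis rose 1.38-fold at 4 h in the paired fit. The log2 change was 0.463 (paired SE 0.0577, 95% interval 0.335 to 0.591, adjusted p = 0.0019), with pair differences of 0.564, 0.505 and 0.32. In the unpaired fit, where the spread between replicate numbers counts as error, the SE was 0.157 and the adjusted p 0.387. The paired call held with each array left out (0.00277 to 0.0161) and missed the threshold without all arrays of replicate 2 (0.442, adjusted p = 0.0913). Ptges had a 4 h log2 change of 0.073, with a 95% interval of -0.147 to 0.292 unpaired and -0.064 to 0.209 paired (adjusted p = 0.982 and 0.559). It was higher in 2 of 3 pairs, and the paired interval reaches no further than a log2 difference of 0.209 in either direction. This bounds the measured ratio of 1 probe, and whether that probe was detected is not known.

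At 12 h the Ptgs2 mean was still 1.57-fold above control but did not pass. The log2 change was 0.648 (adjusted p = 0.69 unpaired, 0.0848 paired), and the pairs split, at 0.959, 1.009 and -0.023. Without control replicate 3 the paired change was 0.892 (adjusted p = 0.00939), and without 12 h replicate 3 it was 0.853 (0.0375), so the call turns on the third pair. Ptgis stood at 0.206 (paired SE 0.0577, adjusted p = 0.112) and was higher in 3 of 3 pairs, as were 14.7% of genes. Ptges stood at 0.061 (paired adjusted p = 0.699). In this comparison 0 genes passed unpaired, with 393 at an unadjusted p under 0.05 and 1 called by the methods' test after adjustment; the paired fit called 156 (1.89%).

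At 24 h none of the 3 genes passed against control. The log2 change was 0.298 for Ptgs2 (95% interval -0.123 to 0.72 unpaired, -0.066 to 0.663 paired), with the pairs at 0.51, 0.574 and -0.189. It was -0.056 for Ptgis (paired interval -0.184 to 0.072) and 0.071 for Ptges (-0.065 to 0.208). The paired adjusted p-values were 0.726, 0.88 and 0.843. The unpaired fit called 0 genes here, with 166 at an unadjusted p under 0.05 and 0 by the methods' test after adjustment (175 unadjusted), and the paired fit called 14 (0.169%). These comparisons share the 3 control arrays, of which replicate 3 was the highest for Ptgs2 and Ptgis.

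Comparing treated groups with each other leaves the controls out of the difference. Without mock-treated cells at each time, length of BMP6 treatment and time in culture cannot be told apart here either. From 4 h to 24 h Ptgs2 fell 2.07-fold, the log2 change being -1.049 (adjusted p = 0.00802 with SE 0.164 in the paired fit, 0.0712 in the unpaired fit), and the pair differences were -0.859, -1.052 and -1.236. Ptgis fell 1.43-fold, by -0.519 (paired SE 0.0577, adjusted p = 0.00286; 0.355 unpaired), with pair differences of -0.508, -0.574 and -0.476. In both genes all 24 h arrays lay below all 4 h arrays, as in 6.62% of genes, and 3 of 3 pairs fell, as in 18.6%. In the paired fit 182 genes fell (2.2%) and 4.05% changed in either direction, against 0.0726% in the unpaired fit. Ptges had a change of -0.001 (paired interval -0.138 to 0.135). With 1 array left out, the paired call of Ptgs2 missed the threshold only without 24 h replicate 3 (adjusted p = 0.0532) and that of Ptgis held for all 12; without all arrays of replicate 2 the paired p-values were 0.125 and 0.111.

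The steps between neighbouring times did not pass. The paired fit called 1.29% of genes from 4 h to 12 h and 0.109% from 12 h to 24 h; the unpaired fit called 0 in each, with 368 and 152 at an unadjusted p under 0.05, and the methods' test called 0 in each after adjustment, with 414 and 256 before it. From 4 h to 12 h Ptgs2 changed by -0.699 (paired adjusted p = 0.0738; 0.623 unpaired) and Ptgis by -0.257 (0.0669; 0.999). All 12 h arrays of Ptgs2 lay below all its 4 h arrays, as in 5% of genes. From 12 h to 24 h the changes were -0.35 (paired adjusted p = 0.603) and -0.263 (0.172), lower in 3 of 3 pairs for both genes, as in 19.2% of genes. All 24 h arrays of Ptgs2 lay below all its 12 h arrays, as in 3.21%. Of the 4 h log2 change, 48.1% was left at 12 h and 22.1% at 24 h for Ptgs2; leaving out control replicates 1, 2 and 3 in turn made the latter 13.2%, 14.2% and 35%. For Ptgs2 no group differed past the threshold from its neighbour in the order control, 24 h, 12 h and 4 h, while the ends of that order did.

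**Figure D2:**
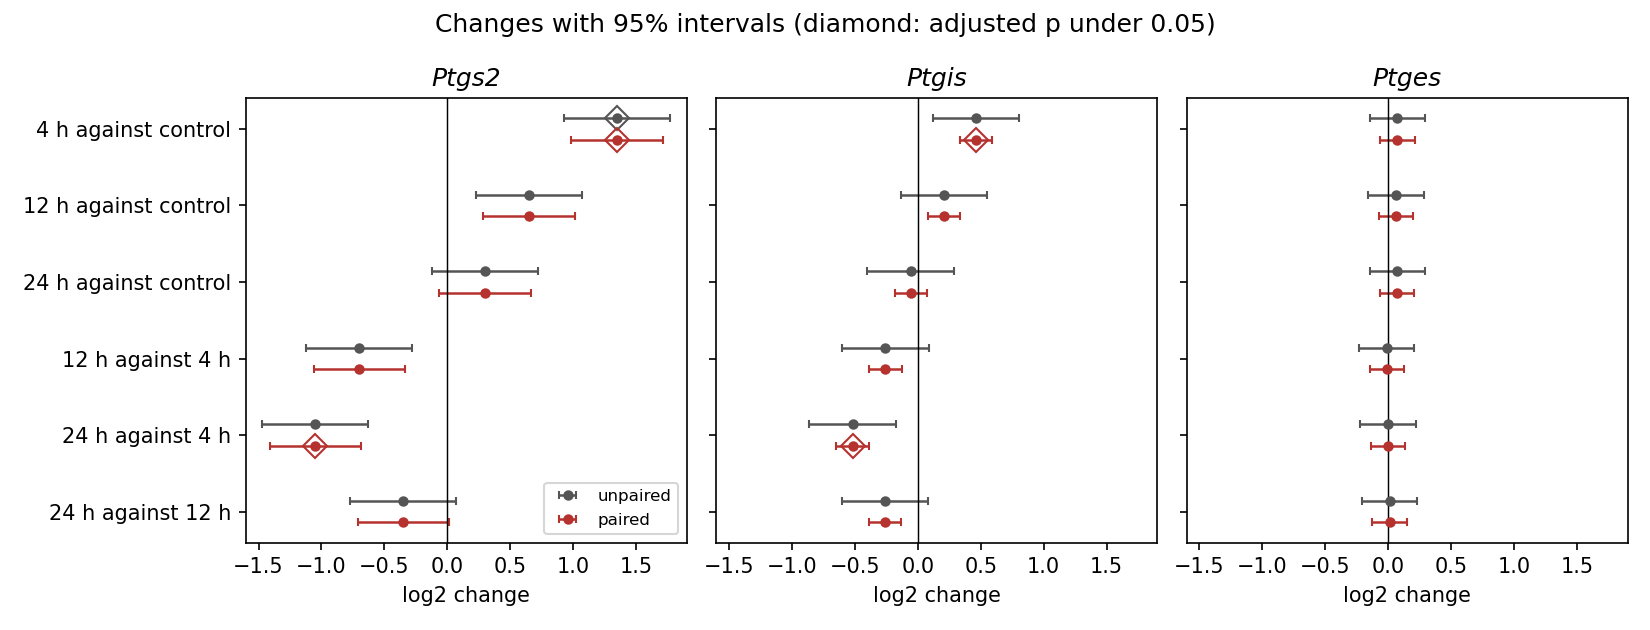
Log2 change of Ptgs2, Ptgis and Ptges in 6 comparisons, with 95% intervals from the unpaired (grey) and paired (red) limma fits over 12 arrays; diamonds mark an adjusted p under 0.05. Ptgs2 at 4 h is marked in both fits, Ptgis at 4 h and both genes at 24 h against 4 h in the paired fit only, and the Ptges points lie between -0.011 and 0.073.

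A test of any difference over the 4 groups passed for Ptgs2 and Ptgis in the paired fit and for none of the 3 genes in the unpaired fit. The adjusted p of limma's F test was 0.0732 unpaired and 0.00649 paired for Ptgs2, 0.733 and 0.00321 for Ptgis, and 1 and 0.789 for Ptges. In the paired fit 4.98% of genes passed, in the unpaired fit 0.0484%. An exact permutation test of the group labels within replicate number (13824 arrangements, smallest possible p 0.00174) gave p = 0.0104 for Ptgs2, 0.00347 for Ptgis and 0.642 for Ptges, unadjusted for the 3 genes.

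**Figure D3:**
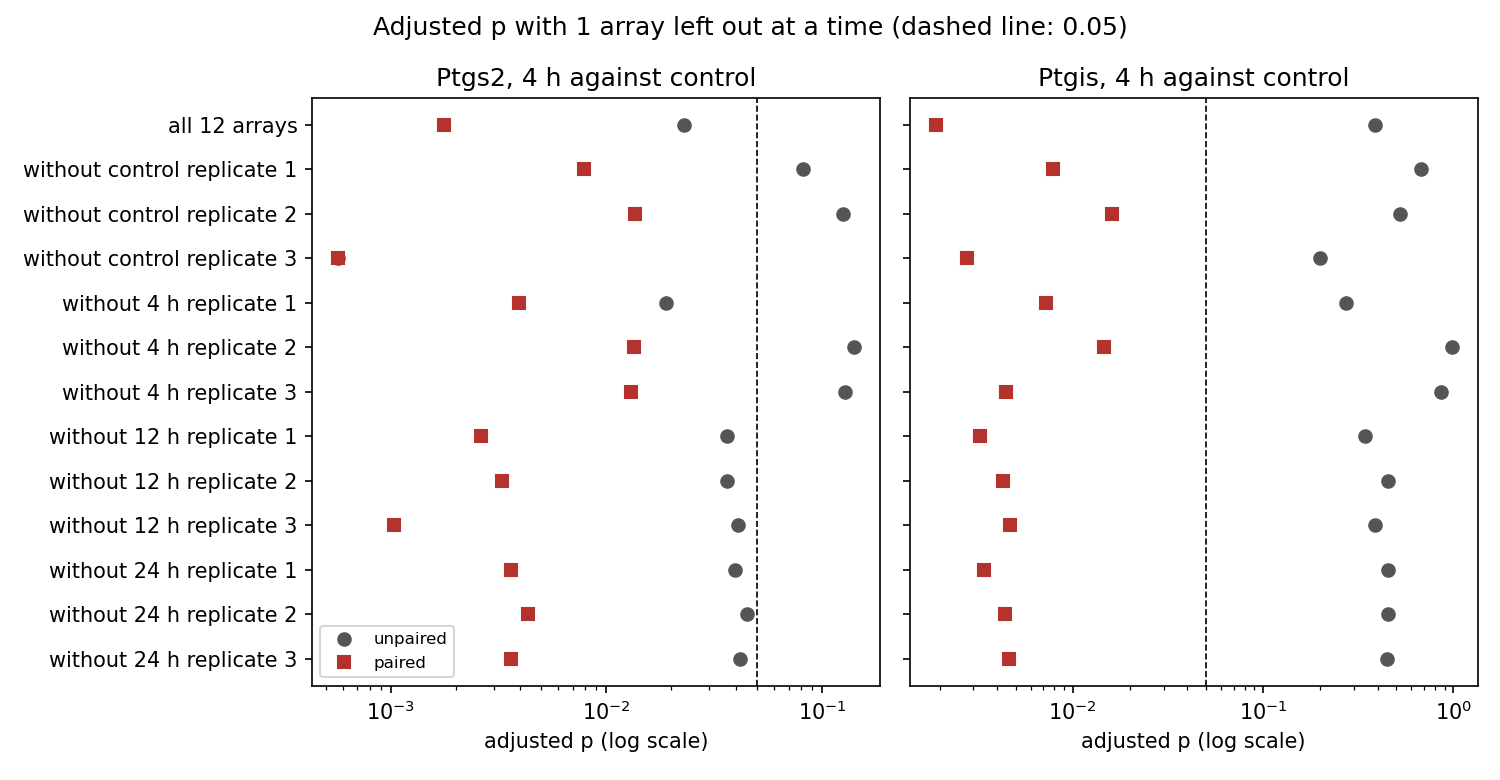
Adjusted p of the 4 h comparison for Ptgs2 and Ptgis (log scale) with all 12 arrays and with 1 array left out at a time, for the unpaired fit (grey circles) and the paired fit (red squares); the dashed line is 0.05. For Ptgs2 the unpaired points cross the line in 4 of the 12 omissions, and without control replicate 3 both fits coincide; for Ptgis all unpaired points lie to the right and all paired points to the left.

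The rest of the pathway was called at a rate near that of all genes. Of 49 genes listed for prostanoid and arachidonate metabolism, 22 were named on the array, 19 of them besides the 3 described. In the paired limma fit 0 of those 19 rose and 1 fell at 4 h, against 2.27% and 3.75% of all genes (6.02% together); at an unadjusted p under 0.05, 1 was higher and 4 were lower, beside 21.3% of all genes in either direction. In the unpaired limma fit 0 of the 19 passed at 4 h, also unadjusted, where 7.43% of all genes did. Their median log2 change was 0.016 at 4 h, 0.009 at 12 h and 0.002 at 24 h, beside -0.006, -0.002 and -0.005 over all genes. At 4 h they lay between -0.41 and 0.19.

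Upstream of cyclooxygenase, Pla2g4a, the cytosolic phospholipase that frees arachidonic acid, lay above the reference at 1.44 ± 0.216 in controls and had a 4 h change of 0.19 (paired adjusted p = 0.16). Anxa1, whose protein annexin A1 restrains phospholipase activity, had changes of -0.24 at 4 h and -0.38 at 12 h (paired adjusted p = 0.136 and 0.052). None of the 4 measured release genes passed in either fit; unadjusted, 1 was higher and 1 lower in the paired fit at 4 h. Ptgs1, the constitutive cyclooxygenase, was not among the named probes, so Ptgs2 alone stands for that step here.

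Among the terminal synthases, the other prostaglandin E synthases Ptges2 and Ptges3 had 4 h changes of 0.06 and -0.01, and the thromboxane synthase Tbxas1 of 0.10 (paired adjusted p = 0.488, 0.956 and 0.529). Ptges2 lay below the reference in controls at -0.72 ± 0.0379, and Ptges3 above it at 1.04 ± 0.117. Of the 4 measured genes on the receptor list, Ptger1, Ptger2, Ppard and Ptgfrn, none passed against control in either fit. Unadjusted, 1 was lower at 4 h in the paired fit. Ptger2, a receptor for prostaglandin E2, stood at -0.22 at 4 h (paired adjusted p = 0.0709) and rose from 4 h to 24 h by 0.36 (paired SE 0.063, adjusted p = 0.0128; 0.543 unpaired), the opposite direction to Ptgs2 and Ptgis, as 1.85% of all genes rose. Slco2a1, the prostaglandin transporter, and the prostaglandin reductases Ptgr1 and Ptgr2 had 4 h changes of 0.07, -0.07 and -0.09, none past the threshold.

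On the neighbouring leukotriene branch, Alox5ap, the activating protein of 5-lipoxygenase, fell in the paired fit. It lay well below the reference, at -1.64 ± 0.216 in controls and -2.05 ± 0.266 at 4 h, and detection of its probe is not known. Its log2 change was -0.41 at 4 h (paired SE 0.087, adjusted p = 0.0244) and -0.45 at 12 h (0.0315), and the unpaired adjusted p-values were 0.7 and 1. It was the 1 gene of the 19 to pass at either time (1.42% of all genes fell at 12 h), and at 24 h it stood at -0.24 (0.518). Lta4h, the leukotriene A4 hydrolase, had a 4 h change of -0.28 (0.0928).

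**Figure D4:**
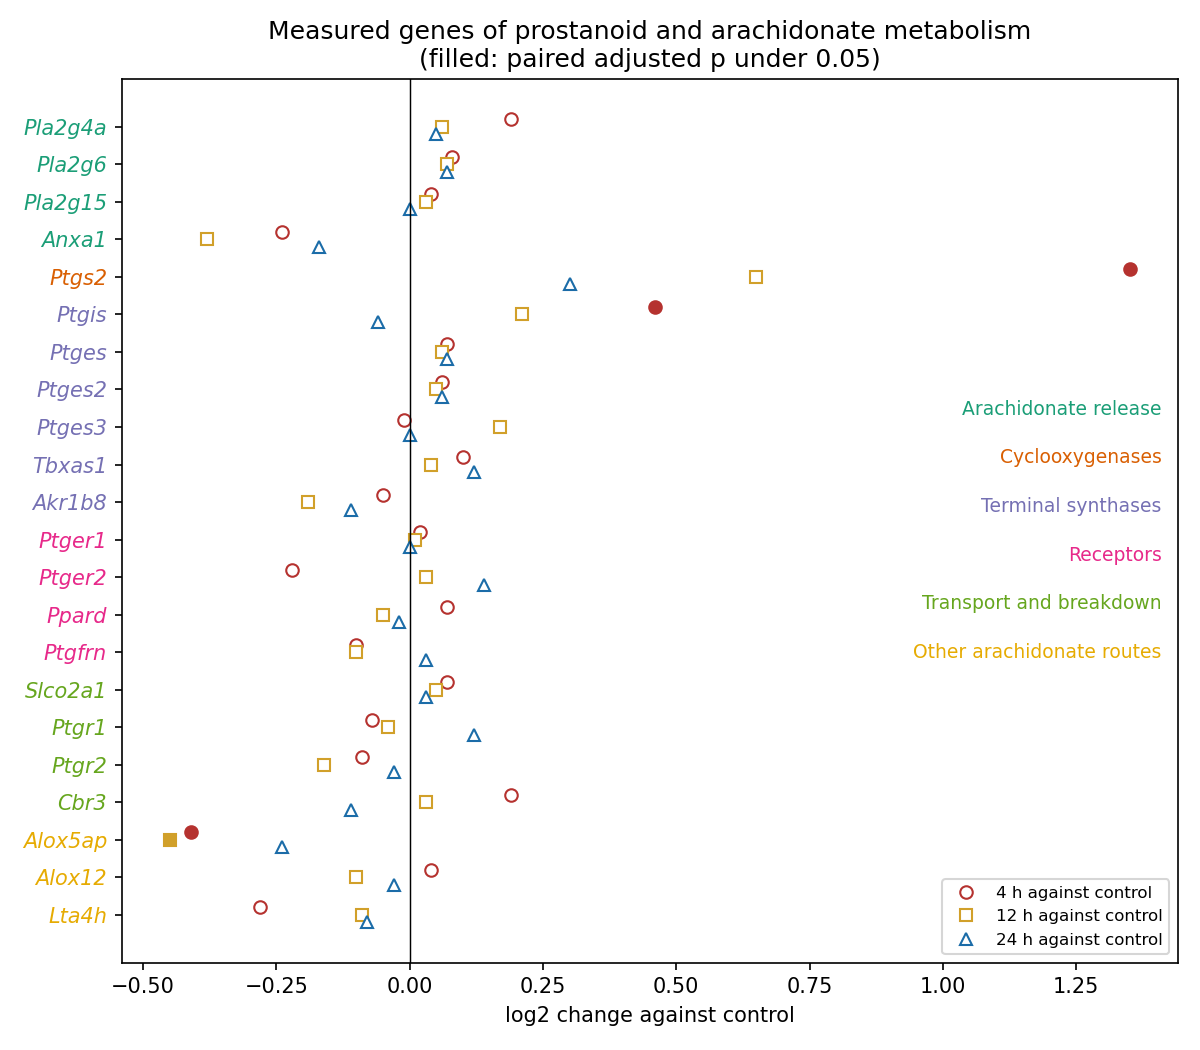
Log2 change against control at 4 h (circles), 12 h (squares) and 24 h (triangles) for the 22 measured genes of prostanoid and arachidonate metabolism, coloured by role; filled symbols have a paired adjusted p under 0.05. Ptgs2 at 1.35 and Ptgis at 0.46 are filled at 4 h and are the highest there. Alox5ap is filled at 4 h and 12 h at -0.41 and -0.45, close to Ptgis in size, and the remaining symbols are open. In the unpaired fit only Ptgs2 at 4 h passed.

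Of 18 transcription factors and RNA-binding proteins known to act on Ptgs2, 15 were measured; in the paired limma fit 1 fell at 4 h and 1 at 12 h, and 0 rose (unadjusted, 1 was higher at 4 h and 3 were lower). Of all genes 3.75% fell at 4 h and 1.42% at 12 h, and 21.3% passed unadjusted at 4 h, so with 15 genes these counts are near the background. Tia1, which binds AU-rich messages including that of Ptgs2 and holds back their translation, fell by 0.35 on the log2 scale at 4 h (paired SE 0.05, adjusted p = 0.00354; 0.125 unpaired). It rose again from 4 h to 24 h by 0.25 (0.0209 paired, 0.386 unpaired). Cebpd, a C/EBP factor, fell by 0.44 on the log2 scale at 12 h (paired adjusted p = 0.0433; 1 unpaired). None of the measured C/EBP, USF and SMAD factors passed at 4 h in either fit. The C/EBP genes Cebpa, Cebpb and Cebpd had 4 h changes of 0.08, 0.17 and -0.25 (paired adjusted p = 0.313, 0.16 and 0.145). The E-box factors Usf1 and Usf2 had -0.12 and 0.01 (0.223 and 0.962). The SMAD genes Smad1, Smad4 and Smad5 had 0.13, -0.08 and -0.04 (0.23, 0.437 and 0.659). Zfp36, a decay factor of AU-rich messages, had a 4 h change of -0.05 (0.734).

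Among genes of the BMP pathway itself, Id1, Id2 and Id3 rose at all 3 times in the paired fit. Of 13 measured receptors and mediators, 4 rose at 4 h in the paired fit, where 2.27% of all genes rose, and 3 at 12 h and at 24 h, where 0.472% and 0.0726% did; the other 9 passed at no time. In the unpaired fit 0 passed, with 5, 3 and 3 higher at an unadjusted p under 0.05. Id1, an inhibitor of differentiation induced by BMP signalling, rose by 0.98, 0.97 and 1.07 at 4, 12 and 24 h (paired adjusted p = 0.00058, 0.00205 and 0.00168; 0.2, 0.533 and 1 unpaired). Its own change from 4 h to 24 h was 0.10 (paired adjusted p = 0.652), beside -1.049 for Ptgs2; the difference between the genes was not tested. Id2 and Id3 stood at 1.19 and 0.92 at 24 h (0.00869 and 0.00168). The fourth gene, Acvr1, a type I BMP receptor, rose at 4 h by 0.32 (paired adjusted p = 0.00446) and fell back by 24 h, at -0.31 against 4 h (0.00841; 0.118 unpaired), the same order of times as Ptgs2 and Ptgis.

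The genes with the time course most like that of Ptgs2 were found by Pearson r over the 12 arrays. They were Cd44, the hyaluronan receptor (r = 0.977), Niban2 (0.969), Il1rap, an interleukin 1 receptor subunit (0.962), Tnfrsf12a, the TWEAK receptor (0.96), and Hbegf, an EGF receptor ligand (0.956). Their 4 h changes were 0.47, 0.65, 0.88, 1.13 and 0.98, and their 24 h changes between 0.10 and 0.22. With the mean of each replicate number subtracted, Dusp4, a MAP kinase phosphatase, came first at 0.993, and 4 of the 5 were shared; with Spearman's rho 3 of the 5 were shared. The lists of the other two genes depended more on the measure, sharing 2 and 2 of 5 for Ptgis and 1 and 2 of 5 for Ptges. The genes most like Ptgis were Arf2 (0.965), Gclm (0.929), Coq10b (0.924), Efna5 (0.92) and Sgk1 (0.916), with 4 h changes from 0.21 to 0.67. Those most like Ptges, led by Ppfibp2 (0.975), had 4 h changes of 0.09 or less, as Ptges did. These are the highest values of 8266 candidate genes on arrays that share replicate effects, and are given as a description.

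**Figure D5:**
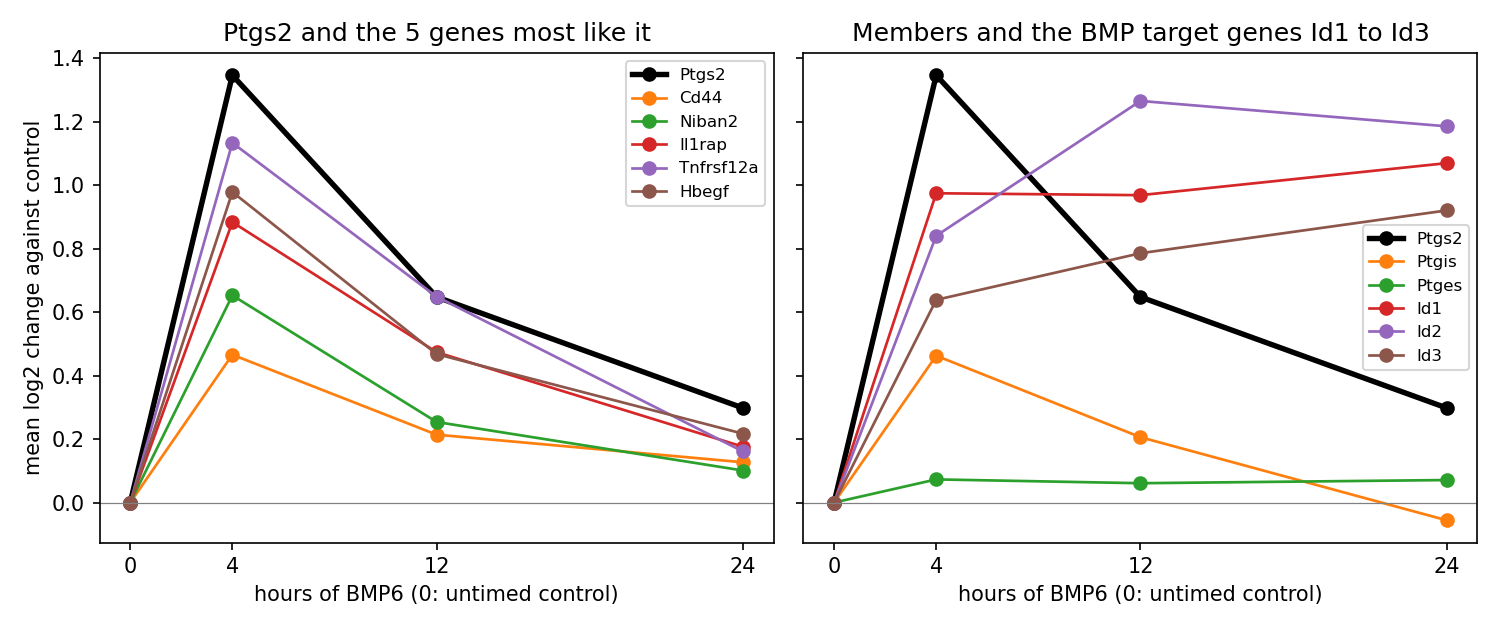
Mean log2 change against control by hours of BMP6, with the untimed controls set at 0; left, Ptgs2 and the 5 genes most like it over 12 arrays, right, the 3 genes described beside Id1, Id2 and Id3. The left curves all peak at 4 h and lie between 0.10 and 0.30 at 24 h, while Id1, Id2 and Id3 end between 0.92 and 1.19.

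A few cell type markers passed in the same comparison. At 4 h in the paired fit 2 of 6 fibroblast markers fell (Col3a1 at -0.24 and Prrx1 at -0.49, adjusted p = 0.0363 and 0.00754), 1 of 4 smooth muscle markers rose (Cnn1 at 0.25, 0.0135), 1 of 5 endothelial markers rose (Flt1 at 0.23, 0.0366, with Pecam1 at -0.27, Cdh5 at -0.11, Esam at -0.08 and Kdr at 0.07 not passing), and 0 of 6 epithelial markers passed, in the unpaired fit or unadjusted either. Of all genes 2.27% rose and 3.75% fell. In the unpaired fit none of these markers passed, with adjusted p = 0.214 for Col3a1, 0.195 for Prrx1, 0.778 for Cnn1 and 0.346 for Flt1. The list medians were -0.144 for fibroblast, 0.146 for smooth muscle, -0.082 for endothelial and 0.023 for epithelial markers, beside -0.006 over all genes. Array means of the fibroblast list ran from -0.66 to -0.28 in controls and from -0.91 to -0.42 at 4 h. The 1 measured blood marker, Ptprc, stood at -0.14 (0.562). Whether these shifts have a part in the changes of Ptgs2 and Ptgis was not tested, and in bulk RNA more cells with a transcript and more of it per cell cannot be told apart.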

How the data were processed

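Per the labels, RNA of MECs (Cy5) and a universal mouse reference RNA (Cy3) were hybridised to Agilent arrays, scanned, and the authors' normalization was by modified local quantiles. The deposited values, 20280 per array on 12 arrays, were taken as log2 ratios; no source used here states their base or sign. Rows were named by reading the grid of 22575 positions in a recovered order: all 11083 listed probe numbers fell on a row with a value, 10576 had 1 symbol (10548 updated through gene identifiers, 8267 genes), and 507 had several and named no gene. Probes of a gene were averaged. Groups and replicate numbers came from the titles.

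Tests used limma 3.58.1 in R 4.3.3 (lmFit, eBayes, two-sided, Benjamini-Hochberg adjusted p under 0.05 over the 8267 genes), unpaired and with an additive term for replicate number. Both fits were also run on simulated data. Those data took additive replicate effects and spreads from these arrays, so they cannot show whether the pairing holds. Every pair of same-numbered arrays correlated above 0.1 in their deviations from group means, so the numbers in the titles were taken as pairs. The labels state an unpaired test between groups (the methods' test) and no pairing. The number of arrays limits the precision. Named genes were the 3 genes, lists by role, and the 5 genes most correlated with each; the 3 genes and these lists were chosen with earlier results of these data known. Alternatives were quantile normalization, median centring, single rows, a variance trend, only the groups compared, the methods' test, arrays left out, and the deposited row order; the pairing together with 4 of these was added after seeing the data.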

Additional observations from a re-analysis of the deposited data

Results flagged for a closer look

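In the paired limma fit, 3 of 22 measured prostanoid and arachidonate genes changed between 4 h and 24 h of BMP6. This contrast called 4.05% of all genes in the paired fit and 0.0726% in the unpaired fit. Ptgs2 and Ptgis were among the genes chosen with earlier results of these data known. Of the 19 genes besides Ptgs2, Ptgis and Ptges, 1 rose and 0 fell. The log2 difference of 24 h minus 4 h was -1.05 for Ptgs2 (adjusted p = 0.00802), -0.52 for Ptgis (0.00286) and 0.36 for Ptger2 (0.0128). In the unpaired fit the adjusted p-values were 0.0712, 0.355 and 0.543. Groups of 3 arrays are too small for a test of single outlying arrays.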

How the results depend on the processing

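The pairing from the titles, with the replicate number as a block, changed the calls of Ptgis at 4 h (0.463), of Ptgs2 and Ptgis at 24 h against 4 h (-1.049 and -0.519) and of both over the 4 groups (F = 25.01 and 33.3; 15.59 and 36.41 in the permutation), all of which it added; it changed no other call of the 3 genes. Added after seeing the data, the block with a variance trend, quantile normalization, only the groups compared or single rows kept these calls: Ptgis at 4 h was 0.466 and the 24 h against 4 h values -0.899 and -0.47 under quantile normalization, the same as above in the others, and F was 14.01 and 20.28, 20.04 and 31.81, and, for single rows, 24.56 and 29.83. Without the block, Ptgs2 at 4 h passed with quantile normalization (1.313), median centring (1.338) and single rows (1.347). It kept 1.347 but missed the threshold with the trend, only the 2 groups, or the methods' test (the cause was not tested).

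For 4 h, 12 h and 24 h against control, 12 h and 24 h against 4 h, and 24 h against 12 h, limma called 14, 0, 0, 0, 6 and 0 genes, and 498, 156, 14, 107, 335 and 9 with the block. At 4 h the count was 27 with quantile normalization, 0 with only the 2 groups, 0 by the methods' test and 8 in the deposited row order. At 12 h it was 1 with quantile normalization and 1 by the methods' test. For 24 h against 4 h it was 14 with quantile normalization, 11 with the trend, 0 with only the 2 groups, 1 by the methods' test and 0 in the deposited row order. For 24 h against 12 h quantile normalization gave 1.

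Leaving out 1 array gave counts, in the same order, of 3 to 51, 0 to 1, 0 to 0, 0 to 1, 0 to 19 and 0 to 0 unpaired, and 208 to 642, 22 to 288, 2 to 16, 2 to 264, 85 to 545 and 0 to 28 with the block; leaving out a number with the block gave 20 to 364, 3 to 92, 0 to 3, 0 to 23, 6 to 171 and 0 to 1. The ranges that follow are over all of these fits. Ptgs2 ranged from 1.195 to 1.613 at 4 h, 0.468 to 0.984 at 12 h, 0.146 to 0.564 at 24 h, -0.843 to -0.495 for 12 h against 4 h, and -1.178 to -0.934 for 24 h against 4 h, with F from 12.53 to 158. Ptgis ranged from 0.335 to 0.605 at 4 h, 0.078 to 0.348 at 12 h, -0.184 to 0.085 at 24 h, -0.375 to -0.124 for 12 h against 4 h, -0.611 to -0.448 for 24 h against 4 h, and -0.395 to -0.145 for 24 h against 12 h, with F from 2.712 to 44.21. Ptges changed sign without passing: -0.023 to 0.141 at 12 h, -0.096 to 0.068 for 12 h against 4 h, -0.081 to 0.071 for 24 h against 4 h, and -0.069 to 0.094 for 24 h against 12 h, where centred arrays gave -0.001. Without control replicate 3, the paired fall from 4 h to 12 h passed for Ptgs2 (adjusted p = 0.0189) and Ptgis (0.037). The files used give no spot intensities, so signal over background was not analysed here.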
